A study of Mus musculus with 6 samples.

Results

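The genes described here are those whose symbols start with Kcn, Scn or Cacn, the mouse prefixes of potassium, sodium and calcium channel genes. Probe sets annotated with exactly 1 gene symbol were searched for these 3 prefixes. They held 131 such genes, out of 19938 genes with a probe set of this kind. Where a gene had several probe sets, the brightest over all 6 arrays stood for it, which mattered for 7 of the 131 genes. The prefixes take in more than voltage-gated channels. Classed by symbol, pore subunits of voltage-gated channels made up 53 members: 25 voltage-gated potassium (Kv) subunits, 10 silent Kv subunits, 8 sodium (Nav) subunits and 10 calcium (Cav alpha1) subunits. By symbol the 8 also take in Scn7a, which encodes the sodium-sensing channel Nax. The other 78 members were 15 inward rectifiers, 14 K2P leak channels, 8 calcium- or sodium-activated and related large-conductance channels (KCa and Slo), 17 potassium channel partners, 3 sodium channel beta subunits, 3 subunits of the epithelial sodium channel (ENaC), 14 auxiliary calcium channel subunits and 4 other genes. Those 4 were the antisense RNA genes Kcnd3os, Kcnmb4os1 and Kcnmb4os2 and the splicing factor gene Scnm1. The members are therefore called ion channel genes below.

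Expression was measured in thymic medullary epithelial cells that lacked CD45, carried an intermediate amount of Ly51 and were high in MHC class II. Mice were 4 to 6 weeks old. The groups were 3 Aire KO mice (Aire-/- on the (B6xNOD)F1 background) and 3 Aire WT mice of the same background, taken singly, with RNA amplified in 2 rounds before hybridisation to 1 array each. The sources used here do not say which part of Aire the KO allele lacks. Errors are spreads between mice, and 3 arrays a group limit their precision. All values are log2 intensities made by the RMA method, and a difference is the KO mean minus the WT mean. A probe set's brightness depends on its probes, so levels are compared between mice and not between genes.

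Voltage-gated channels open or close when the membrane potential changes, moved by charged helices in each pore subunit. Nav channels start action potentials, Cav channels let in calcium for secretion and contraction, and Kv channels bring the membrane back towards rest. Inward rectifiers and K2P channels set the resting potential, and auxiliary subunits control how many channels reach the surface and how they gate. Medullary epithelial cells transcribe genes of many other organs, a large part of them under the control of Aire, and display the products to developing T cells.

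Aire itself stood at 12.41 ± 0.02 in KO mice and 11.97 ± 0.04 in WT mice (SD, n = 3 each), so its probe set does not check the genotype labels. Array medians were 92.9 to 98.2 on the linear scale. All 13 medullary epithelial markers were bright enough to test. The class II gene H2-Aa averaged 13.63 in KO mice and 13.43 in WT mice, and the costimulatory gene Cd80 averaged 10.89 in KO mice and 10.67 in WT mice, neither called. The keratin genes Krt5 and Krt14 and the adhesion gene Epcam fell by 0.84, 0.44 and 0.37, and Relb rose by 0.35. Of 6 cortical markers 4 were also bright enough to test, among them Ctsl at 9.75 in KO mice and 10.48 in WT mice and Prss16 at 8.05 in KO mice and 7.69 in WT mice. The cortical proteasome gene Psmb11 was too dim, at 5.57 in KO mice and 5.61 in WT mice. Of 11 hematopoietic markers measured, 9 were tested. By the limma test used for all genes 3 fell and 0 rose, with the same counts at an unadjusted p under 0.05. Over all tested genes 14.1% fell and 12.0% rose by that test. The summed linear intensity of the 11 markers was 820 to 1107 in KO mice and 1193 to 1952 in WT mice. The pan-leukocyte gene Ptprc averaged 6.47 in KO mice and 7.09 in WT mice, and the T cell receptor subunit gene Cd3g averaged 7.12 in KO mice and 8.51 in WT mice. Other T cell markers were not called, with Cd3e at -0.01, Cd4 at -0.22 and Cd8a at -0.40. WT replicate 3 was the highest array for Ptprc and Cd3g. Ptprc lost its call without KO replicate 3 (adjusted p = 0.0640) or WT replicate 3 (0.0925). The part of these cells in the channel results was not tested. Without WT replicate 3, 7 channel genes fell and 14 rose, against 8 and 17 with all arrays, with 18 calls shared and 3 added. Ptprc was above every KO mouse in the other WT mice too, so leaving out this array does not test the part of hematopoietic cells.

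The comparison of KO with WT asks which channel genes depend on Aire in these cells. Most channel genes did not pass the test, and those that did split between both directions with mostly small changes. The calcium channel subunit gene Cacna2d2 fell 2.25-fold, and the auxiliary subunit gene Cacng8 and the inward rectifier gene Kcnj3 rose 2.10-fold and 2.02-fold. Of the 131 channel genes, 76 were bright enough to test and 55 were not, the limit being a log2 intensity of 5.97 on at least 3 arrays. By limma with Benjamini-Hochberg adjustment over all tested genes at a threshold of 0.05, 8 channel genes fell, 17 rose and 51 did not pass. Over all 13925 tested genes, 14.1% fell, 12.0% rose and 26.1% changed in either direction. Among the tested channel genes the shares were 10.5% for falls, 22.4% for rises and 32.9% together, and no test of these shares was made. All 25 called channel genes had groups that did not overlap, which adds no support because the calls came from the same values. Leaving out KO replicate 1 left 5 falls and 9 rises. Leaving out KO replicate 3 left 4 falls, and leaving out KO replicate 2 left 11 rises. Kcna10 and Kcnmb4os2 were above the limit on KO arrays alone, so they could only rise. In RNA from sorted cells a lower signal in each cell and fewer cells with the signal cannot be told apart.

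Counted over all 131 channel genes with no limit on intensity, 79 stood above zero and 52 below. Their median difference was 0.07, with an interquartile range of -0.09 to 0.23, and the median over all 19938 genes was 0.04. Groups did not overlap for 57 of the 131, against 38.3% of all genes. KO was higher for 36 genes (27.5% of the 131, against 21.0% of all genes) and lower for 21 (16.0%, against 17.4%). Tested with no intensity filter, 11 channel genes fell and 14 rose, where 11.0% of all genes fell, 8.93% rose and 19.9% did either. By 0.5 or more on the log2 scale, 3 called channel genes fell and 4 rose, in a table where 6.2% of tested genes fell and 3.38% rose by that much.

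**Figure D1:**
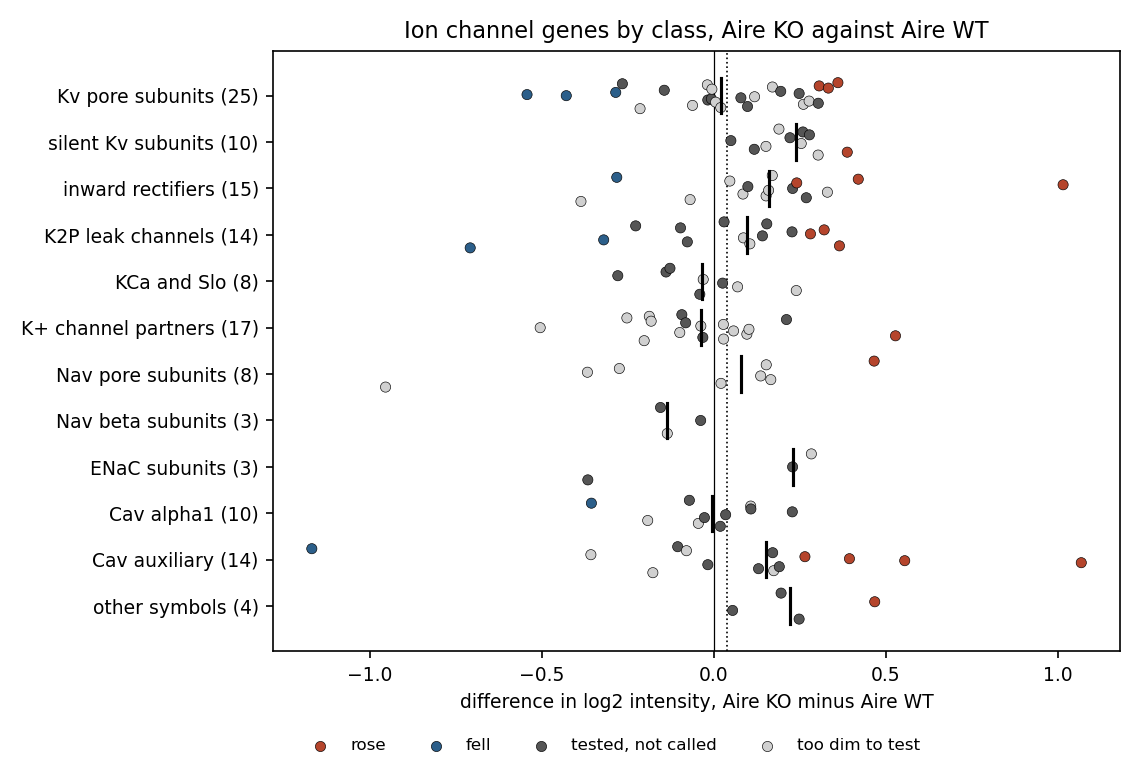
Difference in log2 intensity (Aire KO minus Aire WT) of 131 ion channel genes, a point each, by class with the number of genes in parentheses; vertical scatter within a class has no meaning, short bars are class medians and the dotted line is the median of all genes, 0.04. Most points lie near 0, Cacna2d2 is farthest left at -1.17 and Cacng8 farthest right at 1.07. All 10 silent Kv subunits lie right of 0, 4 of them too dim to test.

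Promoters of many widely used genes are dense in CG pairs. The 250 bases before the RefSeq start (build GRCm38.p6) are shown for Cacna2d2 and Cacna2d1, paralogs that moved in opposite directions, and for Kcnk5 and Kcnj3, the potassium channel genes that fell and rose most. CG pairs are in capitals. Cacna2d2 lies at chr9:107399630-107399879, plus strand, Kcnk5 at chr14:20181783-20182032, minus strand, Kcnj3 at chr2:55435720-55435969, plus strand and Cacna2d1 at chr5:15934441-15934690, plus strand, and each is written 5′ to 3′ on the gene's strand.
Cacna2d2: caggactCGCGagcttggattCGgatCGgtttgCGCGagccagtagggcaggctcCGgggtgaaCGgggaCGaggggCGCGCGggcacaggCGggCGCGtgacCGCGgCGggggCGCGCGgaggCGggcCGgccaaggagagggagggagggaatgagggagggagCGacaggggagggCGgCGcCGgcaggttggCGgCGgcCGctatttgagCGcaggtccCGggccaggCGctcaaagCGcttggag 
Kcnk5: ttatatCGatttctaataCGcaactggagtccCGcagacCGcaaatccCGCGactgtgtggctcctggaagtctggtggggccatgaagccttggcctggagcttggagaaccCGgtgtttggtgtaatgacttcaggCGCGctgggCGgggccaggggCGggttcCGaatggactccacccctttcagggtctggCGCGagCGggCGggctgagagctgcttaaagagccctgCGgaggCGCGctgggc 
Kcnj3: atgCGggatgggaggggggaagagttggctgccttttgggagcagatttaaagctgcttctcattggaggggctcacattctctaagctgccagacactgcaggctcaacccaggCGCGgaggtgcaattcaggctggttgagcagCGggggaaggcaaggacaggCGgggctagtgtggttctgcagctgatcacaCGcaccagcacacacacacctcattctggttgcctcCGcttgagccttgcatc 
Cacna2d1: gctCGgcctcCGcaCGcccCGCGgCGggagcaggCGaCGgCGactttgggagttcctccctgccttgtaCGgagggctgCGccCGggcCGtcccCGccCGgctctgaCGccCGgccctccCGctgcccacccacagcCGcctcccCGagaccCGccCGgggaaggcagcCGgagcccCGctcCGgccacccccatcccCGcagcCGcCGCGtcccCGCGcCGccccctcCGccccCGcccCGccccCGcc

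Auxiliary calcium channel subunits held the largest change in each direction. Cacna2d2 encodes an alpha2delta subunit, a surface protein that raises the number of calcium channels at the membrane and belongs to the family bound by gabapentin. Its log2 intensity (probe set 10588592) was 6.57, 6.27 and 6.43 in KO mice, against 7.52, 7.67 and 7.59 in WT mice. The lowest WT mouse was well above the highest KO mouse. The difference was -1.17 (SE 0.09, 95% interval -1.38 to -0.96, limma adjusted p = 4.9e-06), the 228th lowest difference among the tested genes. Cacna2d1, the paralog of muscle and brain, moved the other way. It gave 7.40, 7.39 and 7.50 in KO mice, against 6.78, 6.87 and 6.97 in WT mice, a rise of 0.56 (SE 0.08, adjusted p = 0.00062) with separate groups. Its second probe set showed 0.68. Cacna2d3 and Cacna2d4 were too dim to test, at -0.36 and -0.08.

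Cacng8 encodes TARP gamma-8, a member of the calcium channel gamma family best known as a partner of AMPA-type glutamate receptors in the hippocampus. It gave 8.88, 8.77 and 8.88 in KO mice, against 7.87, 7.83 and 7.64 in WT mice (probe set 10569702). Every KO mouse lay above every WT mouse, by 1.07 on average (SE 0.09, 95% interval 0.87 to 1.26, adjusted p = 6.2e-06). Cacng7, another TARP gene and the tested gene next to Cacng8 in chromosome order, rose by 0.40 (adjusted p = 0.010) and lost its call without KO replicate 1 (0.33, adjusted p = 0.0514). Tarm1, the next tested gene on the other side of Cacng8, fell by 0.38 (adjusted p = 0.0054). Among the 50 places beside the 25 called channel genes, neighbours were called in the same direction in 12, in the other direction in 6 and not called in 32. Cacng7 with Cacng8, and Kcnk5 with Kcnk16, are counted from both sides among the 12. Over all tested genes 14.1% fell, 12.0% rose and 26.1% were called in either direction, and no test of the neighbour counts was made. Cacng1, the gamma subunit of the skeletal muscle channel, and Cacng2 (stargazin) stood at 0.17 and 0.19 and were not called. Among the beta subunits, which bring the pore subunit to the membrane, Cacnb2 rose by 0.27 (adjusted p = 0.042), a call lost without any 1 of the 6 arrays (adjusted p 0.0506 to 0.117). It was also lost with no intensity filter, an offset of 32, trended variances, array weights and the replicate number as a block. Of 14 auxiliary calcium channel genes, 10 were tested, 1 fell and 4 rose.

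Calcium pore subunits changed less. Cacna1a, the P/Q-type channel of presynaptic terminals, fell by 0.35 (6.95 ± 0.07 in KO mice and 7.30 ± 0.10 in WT mice, SD, n = 3 each, limma adjusted p = 0.011), and lost its call without KO replicate 3 (adjusted p = 0.0524). Cacna1b, the N-type channel, was 8.97 ± 0.06 in KO mice and 8.74 ± 0.04 in WT mice (SD, n = 3 each). Its difference of 0.23 missed the threshold (limma adjusted p = 0.054, 95% interval 0.05 to 0.40), although the groups did not overlap. It passed without WT replicate 3 (0.25, adjusted p = 0.0480). Cacna1g, a T-type channel, stood at 0.11 and was not called. Of 10 Cav alpha1 genes 7 were tested, 1 fell and 0 rose, where 14.1% of all tested genes fell and 12.0% rose. At an unadjusted p under 0.05 limma gave 1 Cav alpha1 gene lower and 1 higher.

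**Figure D2:**
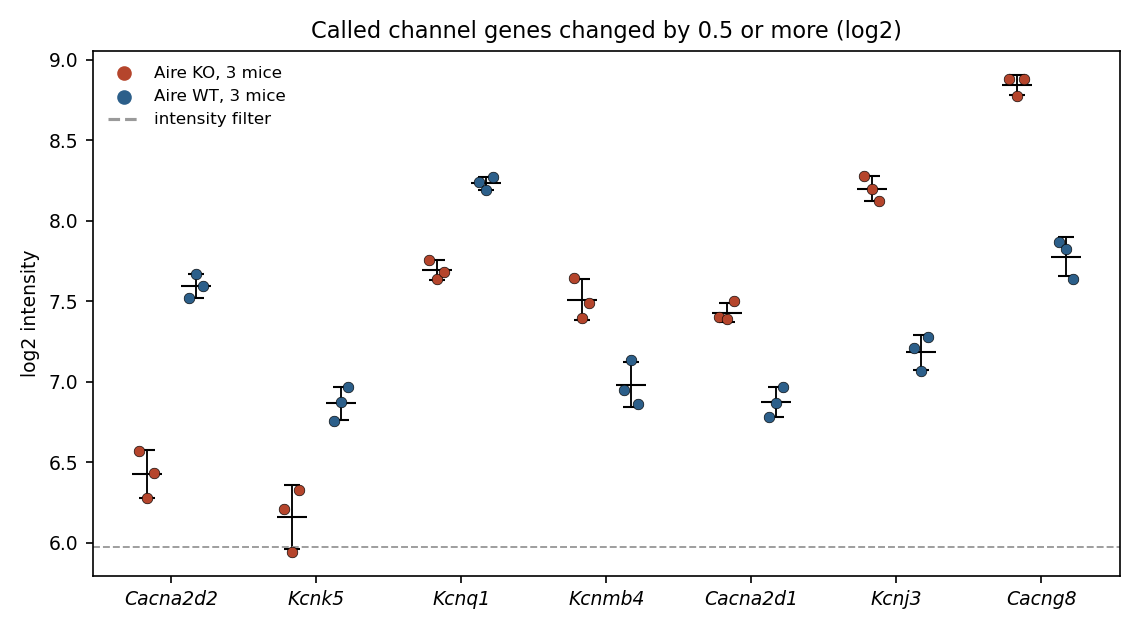
Log2 intensity in 3 Aire KO mice (red, left of each pair) and 3 Aire WT mice (blue, right) for the 7 called channel genes that changed by 0.5 or more; bars are the mean and SD and the dashed line is the intensity filter at 5.97. The groups are separate for all 7 genes, and 1 KO value of Kcnk5 lies under the filter.

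Inward rectifiers pass potassium more easily into the cell than out of it. Kcnj3 encodes Kir3.1 (GIRK1), which G protein beta-gamma subunits open in heart atria and neurons. It gave 8.28, 8.20 and 8.12 in KO mice, against 7.21, 7.06 and 7.27 in WT mice (probe set 10472155). All KO mice were higher, by 1.02 on average (SE 0.09, 95% interval 0.82 to 1.21, adjusted p = 8.4e-06), the 71st highest difference among the tested genes. The other GIRK genes did not pass or were dim: Kcnj5 stood at 0.10 and was not called, and Kcnj6 (0.15) and Kcnj9 (0.33) were not tested. Kcnj4 rose by 0.42 (adjusted p = 0.019), and lost its call without KO replicate 2 or KO replicate 3 (adjusted p 0.0527 and 0.0768).

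Kcnj11 encodes Kir6.2, the pore of the ATP-sensitive channel that couples glucose to insulin release in beta cells. It was 7.19, 7.15 and 7.28 in KO mice, against 7.00, 6.92 and 6.98 in WT mice, a rise of 0.24 (adjusted p = 0.045). Abcc8 encodes SUR1, the sulfonylurea receptor that completes this channel, and is the next tested gene along the chromosome. It rose by 0.29 (adjusted p = 0.033), and was named here after its values had been seen. Kcnj11 lost its call without any 1 of the 6 arrays (adjusted p 0.0542 to 0.156), as well as with no intensity filter, median centring, an offset of 32, trended variances and the replicate block. Abcc8 lost it without each array but KO replicate 3 (adjusted p 0.0510 to 0.142), and with the replicate block (0.061).

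Kcnj15 (Kir4.2) fell by 0.28 (adjusted p = 0.047), a call lost without KO replicate 1, KO replicate 3, WT replicate 1 or WT replicate 3 (adjusted p 0.0927 to 0.169) and with no intensity filter, median centring or the replicate block. Kcnj8 and Kcnj14, at 0.27 and 0.23, were not called, and Kcnj8 passed without WT replicate 1 (0.39, adjusted p = 0.0193). Of 15 inward rectifier genes, 12 stood above zero (80%, against 57.3% of all genes), and 8 of the 15 were too dim to test. Of the 7 tested, 1 fell and 3 rose, where 14.1% of all tested genes fell and 12.0% rose.

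K2P channels leak potassium at rest and answer to pH, stretch or lipids rather than voltage. Kcnk5 (TASK-2), known from kidney tubules, gave 6.21, 5.94 and 6.33 in KO mice, against 6.76, 6.87 and 6.97 in WT mice. No KO mouse reached the WT range. The fall was 0.71 on the log2 scale, or 1.63-fold (SE 0.11, adjusted p = 0.00061). Kcnk16 (TALK-1), a channel of pancreatic beta cells, is the next tested gene to Kcnk5 along the chromosome and fell by 0.32 (adjusted p = 0.037). It lost its call without KO replicate 1, KO replicate 3, WT replicate 1 or WT replicate 2 (adjusted p 0.0935 to 0.142). Kcnk4 (TRAAK), Kcnk7 and Kcnk15 rose by 0.37, 0.32 and 0.28. Kcnk4 lost its call without KO replicate 1 or KO replicate 3 (adjusted p 0.0592 to 0.0750), Kcnk7 without those or WT replicate 1 or 3 (0.0611 to 0.120), and Kcnk15 without any array but WT replicate 2 (0.0676 to 0.136). Kcnk15, at an adjusted p of 0.0498, also lost its call with no intensity filter, an offset of 32, trended variances, array weights and the replicate block. Kcnk3 and Kcnk9, the acid-sensitive TASK channels, showed differences of 0.23 and -0.23 that did not pass, and Kcnk3 passed without WT replicate 2 (0.35, adjusted p = 0.0438). Of 14 K2P genes, 12 were tested, 2 fell and 3 rose, where 14.1% of all tested genes fell and 12.0% rose.

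Among Kv pore subunits, 3 fell and 3 rose of 15 tested (20% each), where 14.1% of all tested genes fell and 12.0% rose. Kcnq1 encodes the slow delayed rectifier of the heart, which also recycles potassium in secretory epithelia. It was 7.76, 7.64 and 7.68 in KO mice, against 8.24, 8.19 and 8.27 in WT mice. The groups were far apart for their spread, and the fall was 0.54 (SE 0.08, 95% interval -0.72 to -0.37, adjusted p = 0.00048). Its beta subunit genes Kcne1, Kcne2 and Kcne3 were too dim to test, at 0.10, -0.18 and -0.04. Kcnq3, a subunit of the neuronal M-current, stood at -0.26 and was not called (adjusted p = 0.063), and passed without KO replicate 2 (-0.34, adjusted p = 0.0327).

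In the ether-a-go-go family, Kcnh1 (6.15 ± 0.10 in KO mice and 6.58 ± 0.12 in WT mice, SD, n = 3 each) fell by 0.43 (limma adjusted p = 0.0056) and Kcnh8 by 0.28 (adjusted p = 0.024), and Kcnh4 rose by 0.36 (adjusted p = 0.021). Kcnh8 lost its call without KO replicate 1 or KO replicate 3 (adjusted p 0.0732 to 0.0954), with an offset of 32 and with the replicate block, and its second probe set showed -0.11. Kcnh4 lost it without KO replicate 1, WT replicate 1 or WT replicate 3 (0.0516 to 0.0942). Kcnh2, the channel behind the rapid cardiac current, stood at -0.01. In the Shaker family, Kcna7 and Kcna10 rose by 0.33 and 0.31. Kcna7 lost its call without KO replicate 1, KO replicate 2, WT replicate 1 or WT replicate 3 (0.0599 to 0.103), and Kcna10 without KO replicate 2 (0.0653). Kcna3, the main Kv channel of T cells, stood at 0.20 and was not called (adjusted p = 0.099). Kcnc1, the fast channel of firing neurons, stood at 0.30 with overlapping groups (adjusted p = 0.071), and passed without KO replicate 3 or WT replicate 1 (0.0300 and 0.0359).

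Silent Kv subunits form no channel alone and change the gating of Kv2 channels. All 10 stood above zero, with a median of 0.24, against a share of 57.3% above zero over all genes. However, 4 of the 10 were too dim to test. Of the 6 tested 0 fell and 1 rose (16.7%), where 14.1% of all tested genes fell and 12.0% rose. Kcng3 was 7.76 ± 0.04 in KO mice and 7.37 ± 0.10 in WT mice (SD, n = 3 each), and was the member that passed, with a rise of 0.39 (limma adjusted p = 0.0055). Groups did not overlap for 6 of the 10, all higher in KO, where 21.0% of all genes had separate groups with KO higher. Among these 6, Kcng4 and Kcns2 were too dim to test. Kcng1 and Kcng2, at 0.26 and 0.28, were not called (95% intervals 0.06 to 0.46 and 0.04 to 0.52), and Kcng1 passed without WT replicate 1 (0.32, adjusted p = 0.0417).

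**Figure D3:**
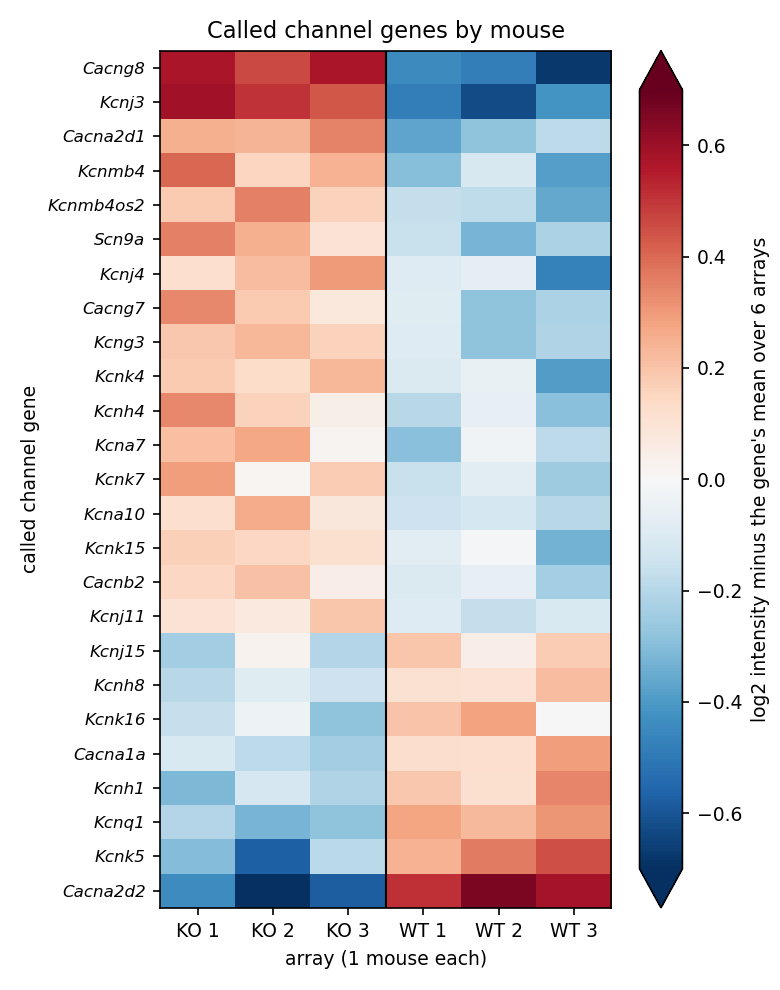
Log2 intensity minus the gene's mean over 6 arrays (colour, cut at 0.7 above and below 0) for the 25 called channel genes, with 3 Aire KO mice left and 3 Aire WT mice right of the line. Genes run by difference from Cacng8 at the top (1.07) to Cacna2d2 at the bottom (-1.17), and the steps between KO and WT are clear in the outer rows and faint in the middle ones.

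Sodium channel genes were mostly dim. Of 8 Nav pore subunits 1 was bright enough to test: Scn9a (Nav1.7), the channel of pain-sensing neurons, was 8.37, 8.26 and 8.12 in KO mice, against 7.86, 7.69 and 7.79 in WT mice. It rose by 0.47 (SE 0.09, adjusted p = 0.0033) with separate groups, and its second probe set showed 0.57. Probe sets annotated to Scn9a together with Scn3a, or with both Scn2a and Scn3a, were left out, as was that of Scn3a with Scn1a. Scn7a, which encodes the sodium-sensing channel Nax, had the largest difference among the untested channel genes. It gave 4.66, 4.77 and 4.56 in KO mice, against 5.28, 5.65 and 5.93 in WT mice, a difference of -0.95 (adjusted p = 0.00050 with no intensity filter). All 6 values lay under the intensity limit. With no intensity filter Kcnip1 (-0.50, adjusted p = 0.0033), Cacna2d3 (-0.36, 0.018) and Kcnj13 (-0.39, 0.033) also passed, all lower in KO. These 4 dim genes were named after their values had been seen. The beta subunits Scn2b and Scn4b stood at -0.04 and -0.15 and were not called.

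The ENaC genes, which take up sodium in kidney, lung and gut epithelium, were not called where tested, in 2 of 3 by limma, with 1 lower and 1 higher at an unadjusted p under 0.05. Scnn1a was 7.33, 7.64 and 7.52 in KO mice, against 7.62, 7.70 and 8.26 in WT mice. The groups overlapped and WT replicate 3 was the highest. The difference of -0.37 (adjusted p = 0.097) passed without WT replicate 1 (-0.48, adjusted p = 0.0446). Scnn1g stood at 0.23 (adjusted p = 0.094) and passed without WT replicate 3 (0.31, 0.0251). Scnn1b was too dim to test and stood at 0.28, with groups that did not overlap.

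Potassium channel partners were also mostly dim, with 5 of 17 tested. Kcnmb4, the neuronal beta subunit of the BK channel, gave 7.65, 7.40 and 7.49 in KO mice, against 6.95, 7.13 and 6.86 in WT mice. The groups were separate and the rise was 0.53 (SE 0.10, adjusted p = 0.0025). Its antisense RNA gene Kcnmb4os2 rose by 0.47 (adjusted p = 0.0032) and Kcnmb4os1 stood at 0.20 and was not called. Whether these probe sets separate the strands was not tested. The pore gene of the BK channel, Kcnma1, was not called at -0.14 (95% interval -0.39 to 0.11), and its second, dimmer probe set showed 0.17. Kcnn3, a small-conductance channel, stood at -0.28 with overlapping groups (adjusted p = 0.10) and passed without WT replicate 1 (-0.37, adjusted p = 0.0462). Of 5 tested KCa and Slo genes, 0 were called by limma, against 26.1% of all tested genes. With no intensity filter 0 of the 8 were called, and 1 of those tested was lower at an unadjusted p under 0.05. Kcnip3, a calcium-binding partner of Kv4 channels, stood at -0.09 and Kcnab2, a cytoplasmic beta subunit, at 0.21. Neither was called, and Kcnab2 passed without WT replicate 3 (0.25, adjusted p = 0.0454). Kcnd3os, at 0.25, was not called.

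**Figure D4:**
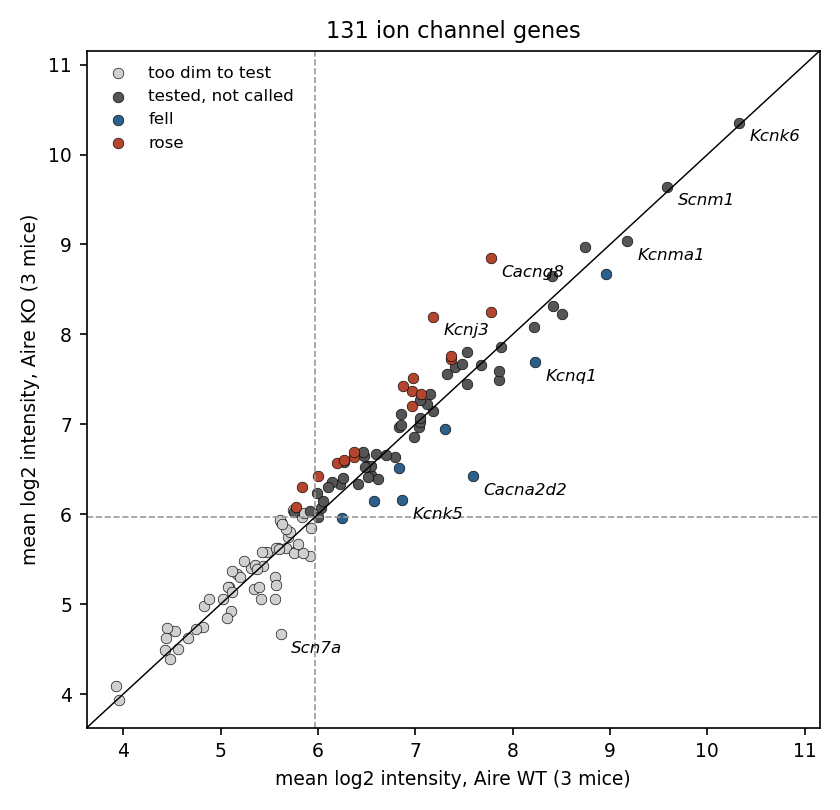
Mean log2 intensity of 131 ion channel genes in 3 Aire KO mice (vertical axis) against 3 Aire WT mice (horizontal axis), with the line of equal values and the intensity filter at 5.97 dashed on both axes. Points hug the line over the whole range; Cacng8 and Kcnj3 stand above it, Cacna2d2, Kcnk5, Kcnq1 and the dim Scn7a below it.

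Calls differed in how firmly they held. Of the 25 called channel genes, 11 kept their call in each of the 16 alternative fits that tested them: Cacna2d2, Kcnk5, Kcnq1 and Kcnh1, which fell, and Cacng8, Kcnj3, Cacna2d1, Kcnmb4, Scn9a, Kcng3 and Kcnmb4os2, which rose. Kcnk5, Kcnh1 and Kcnmb4os2 were too dim to be tested under the stricter filter. Kcnmb4os2 was above the main intensity limit on KO arrays alone, so there it could only rise. The other 14 lost the call at least once.

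In the promoter windows printed above, Cacna2d2 and Cacna2d1, which moved in opposite directions, had 34 and 36 CG pairs in the window. Kcnk5 had 19 and Kcnj3 had 7. Of the other genes with changes of 0.5 or more, Kcnmb4 had 43 and Cacng8 had 0, and Kcnq1 had no listed window. Whether the start listed for Cacng8 is used was not tested. RefSeq starts were listed for 99 of the 131 channel genes. The median number of CG pairs was 18 for the 6 that fell, 12 for the 16 that rose (15 without Cacng8), 12.5 for the 32 not called and 6.5 for the 45 not tested, with 15 over all tested genes. A gene with several listed starts was counted if any of its windows held the letters. TATAAA on either strand was found for 5 of the 99 genes (5.05%) and for 12.5% of all genes in the table with a listed start. It was found for 0 of the 6 channel genes that fell, 0 of the 16 that rose and 1 of the 32 not called (3.1%), against 8.86% of all tested genes. GGGCGG on either strand was found for 57.6% of the channel genes and 49.3% of all genes in the table. These are descriptions of letters before listed starts, and the starts used in these cells were not measured.

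Channels with other symbols were read from a separate list. Of 38 listed genes of HCN, TPC, CNG, CLC, TRP and other families 36 had a probe set and 22 were tested, of which 1 fell and 2 rose, against 26.1% of all tested genes called. The median over the 36 was 0.09. Tpcn1, an endolysosomal channel, rose by 0.55 (7.97 ± 0.18 in KO mice and 7.41 ± 0.14 in WT mice, SD, n = 3 each, limma adjusted p = 0.0032). Trpm4 rose by 0.32 and Trpm7 fell by 0.32. Trpm4 lost its call without KO replicate 1, KO replicate 2, WT replicate 2 or WT replicate 3 (adjusted p 0.0506 to 0.137). Trpm7 lost it without KO replicate 1, KO replicate 3, WT replicate 1 or WT replicate 3 (0.0750 to 0.165) and with no intensity filter, median centring or the replicate block.

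Genes for channel partners and calcium release moved in both directions. Of 44 with a probe set, 33 were tested, 4 fell and 9 rose, with a median over the 44 of 0.08. Of those tested 12.1% fell and 27.3% rose, against 14.1% and 12.0% of all tested genes, and no test of these shares was made. Stac, whose family brings Cav1 channels to the membrane in muscle and neurons, gave 8.37, 7.95 and 7.99 in KO mice, against 7.12, 6.70 and 6.57 in WT mice, a 2.48-fold rise (adjusted p = 6.8e-05). Jph1, a junctophilin that ties the plasma membrane to calcium stores in muscle, gave 10.72, 10.94 and 10.66 in KO mice, against 9.51, 9.40 and 9.60 in WT mice, a 2.40-fold rise (adjusted p = 3.2e-06). Dpp10, a partner of Kv4 channels, rose by 0.70 (adjusted p = 0.00073), and Sgk1, a kinase that raises ENaC at the membrane, fell by 0.66 (adjusted p = 0.00051). The KO and WT groups of these 4 genes did not overlap.

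Among markers of cells known for these channels, calls went in both directions in each list but that of ionocytes, which had falls only. Over all tested genes 14.1% fell and 12.0% rose. Falls made up 22.2% of tested neuron and glia markers, 16.7% of neuroendocrine, 45.5% of muscle, 75% of ionocyte and 11.1% of tuft cell markers. In the same order, rises made up 11.1%, 33.3%, 9.09%, 0% and 11.1%, and no test of these shares was made. Neuron and glia markers had 2 falls and 1 rise among 9 tested: the neurofilament genes Nefl and Nefm fell by 1.93 and 0.95, and the synaptotagmin gene Syt1 rose by 0.25, a call lost without any array but WT replicate 3 (adjusted p 0.0585 to 0.130) and with no intensity filter or the replicate block. Neuroendocrine markers had 1 fall and 2 rises among 6 tested. Insm1, a neuroendocrine transcription factor gene, rose by 0.40, Syp by 0.30 and Scg2 fell by 0.58. Syp lost its call without any array but WT replicate 2 (0.0515 to 0.149), and Scg2 without KO replicate 1 or 3 or WT replicate 2 or 3 (0.0561 to 0.0797). Muscle markers had 5 falls and 1 rise among 11 tested: Myh3 fell by 1.59, Actc1 by 1.10 and Myh8 by 0.78, and Des rose by 1.12. Ionocyte markers had 3 falls among 4 tested, Cftr by 0.62, Atp6v1b1 by 0.37 and Foxi1 by 0.36. Of the 6 ionocyte markers measured 4 stood below zero and 2 above, Foxi2 (0.13, not called) and Ascl3 (0.07, too dim to test). The summed linear intensity of the 6 was 436 to 443 in KO mice and 505 to 526 in WT mice. Tuft cell markers had 1 fall (Dclk1, 0.61) and 1 rise (Hmx3, 0.57) among 9 tested. The part of these cells in the channel results was not tested.

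The remaining marker lists were those of the epithelium and stroma, and their counts stand beside 14.1% of all tested genes that fell and 12.0% that rose. Medullary markers had the 3 falls and 1 rise given above among 13 tested, and cortical markers 1 fall (Ctsl) and 1 rise (Prss16) among 4. Fibroblast markers had 1 fall (Col1a1) and 1 rise (Dcn) among 6, and endothelial markers 0 calls by limma among 4, with 1 lower at an unadjusted p under 0.05. Krt14 lost its call without KO replicate 1 or 2 (adjusted p 0.0516 to 0.0565), Epcam without KO replicate 1, KO replicate 3 or WT replicate 3 (0.0575 to 0.0917) and Prss16 without KO replicate 2 (0.0626). Itgam, the third hematopoietic marker to fall, was lower by 1.29.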

How the data were processed

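The authors deposited intensities on the linear scale, 1 per probe set and array for 6 arrays, made with RMA per the submitters' processing notes. The RMA version and the genome build were not given in the sources used here. RMA forces arrays to 1 distribution, which hides changes in total RNA, and background can compress folds of dim genes. The table holds 35512 probe sets, of which 21789 have 1 gene symbol, 1621 several (left out, 3 of them with channel symbols) and 12102 none. All 131 channel genes matched RefSeq (GRCm38.p6) by Entrez identifier, and 0 symbols needed an update.

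Log2 was taken with a pseudocount of 0. Genes over 5.97, the 40th percentile of the whole table, on 3 or more arrays were tested. Differences were tested two-sided by lmFit and eBayes of limma 3.58.1, run under R 4.3.3, with genotype as the factor, adjusted over all 13925 genes, with a threshold of 0.05. SE and 95% intervals come from that fit. Channel genes, marker lists and partner lists were chosen with earlier results of these data known. Named genes are Aire, all called members, the 2 largest differences not called in each class, up to 4 called genes of each list by adjusted p, and the defining markers Ptprc, Epcam, H2-Aa, Cd80 and Psmb11. Other genes were named after their values had been seen: relatives or subunit partners of called genes (Cacna2d3, Cacna2d4, Kcnj5, Kcnj6, Kcnj9, Kcne1, Kcne2, Kcne3, Kcnh2, Kcna3, Scnn1b), dim genes called with no filter (Scn7a, Kcnip1, Kcnj13), the neighbours Abcc8 and Tarm1, and the T cell markers Cd3e, Cd4 and Cd8a. The silent Kv genes Kcng4 and Kcns2 and the ionocyte markers Foxi2 and Ascl3 were also named after their values had been seen. Simulated arrays had 13925 genes, of which 200 were changed. The test recovered 60% of genes changed by 0.5 on the log2 scale (50% to 70% over 10 simulations). It recovered 96.2% at 1 and 100% at both 2 and 3. In the data 26.1% of tested genes were called, so the adjustment was less strict there. These rates therefore do not give the share of changes missed in the data. Same-numbered KO and WT mice did not deviate together (correlations -0.02, -0.21 and -0.06 across genes), and the main fit did not pair them. With 3 mice a group, these correlations cannot show whether same-numbered mice were handled together. The planned count of voltage sensor patterns in proteins was not run. Figures used matplotlib 3.10.9.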

Additional observations from a re-analysis of the deposited data

How the results depend on the processing

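The 16 alternative fits changed the filter (3 ways), normalized by quantiles again, centred arrays on their medians, added 32 to intensities, averaged probe sets per gene, used trended and robust variances, weighted arrays, took the replicate number as a block, or left out 1 array. With the stricter filter at the 60th percentile, which tested 33 channel genes, 4 fell and 10 rose. Leaving out 1 array gave 4 to 9 channel genes that fell and 9 to 16 that rose, and 1364 to 1877 genes that fell and 1052 to 1547 that rose over the whole table. The replicate block gave 6 and 15 channel genes, and 1742 and 1368 genes over the table. The median over the 131 channel genes was 0.03 to 0.09 in all fits that change it, and always above that of all genes, at 0.02 to 0.05. They were closest without WT replicate 3, at 0.030 for channel genes and 0.027 for all genes. These fits share arrays, so their agreement is not separate support. Of the single-gene values, 2 changed sign, both not called: Kcnma1 was 0.017 with the mean of its probe sets, and Scn2b ran from -0.117 to 0.037 with 1 array left out, its highest value without KO replicate 3. The cause was not tested. No detection calls came with the values, so brightness over background was not tested.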
